A study of Mus musculus with 46 samples.

Results

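Peaks of open chromatin in AgRP neurons that were higher after a fast and higher again when leptin was given to the fasted animal were selected on the ATAC-seq values themselves. A peak was kept where its mean log2 CPM (reads scaled to library size) over the 6 libraries was at least 1, the fasted mean exceeded the fed mean by at least 0.6, the leptin mean exceeded the fasted mean by at least 0.6, and the libraries of neighbouring states did not overlap. The rule kept 2188 of 90196 peaks. The fed, fasted and leptin libraries came from male NuTRAP mice crossed to AgRP-IRES-Cre on the C57BL/6J background, aged 6 to 11 weeks, in which Cre tags the nuclei and ribosomes of cells that express Agrp. The fed group ate ad libitum and received PBS, the fasted group went without food for 18 to 20 h and also received PBS, and the leptin group was fasted alike and received leptin at 5 mg/kg intraperitoneally. Mice were killed 3 h after the injection and the arcuate nuclei of 4 mice were pooled per sample. ATAC-seq of sorted GFP-positive nuclei had 2 libraries per state, and ribosome-bound RNA (TRAP) had 3 fed, 4 fasted and 4 leptin libraries. AgRP-positive and AgRP-negative nuclei, sorted from the same pooled samples of male mice of this cross, had 2 ATAC-seq libraries each, and their feeding state is not given in the sources used here. A pair of CUT&RUN samples were also used, CTCF in AgRP nuclei and IRF3 in the IRF3-2D model, in which constitutively active IRF3 is expressed in AgRP neurons. What was measured is limited to cells in which the Agrp promoter drives Cre and to the purity of the sort and of the ribosome pull-down, and because mice were pooled the spread between libraries is not the spread between animals.

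AgRP neurons of the arcuate nucleus release AgRP, neuropeptide Y and GABA and drive feeding. They are active in a fasted animal, and leptin, the satiety hormone of fat tissue, acts on them through the leptin receptor, the kinase JAK2 and the transcription factor STAT3. Neuronal activity induces AP-1, a family of dimers of FOS and JUN proteins. AP-1 sites are typical of chromatin that opens when neurons fire, while STAT dimers bind a palindrome that leptin and other cytokines use.

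The central 300 bases of 6 such peaks are printed because each is linked to a gene whose RNA rose with leptin, and its window holds a match to the AP-1 letters TGANTCA or the STAT letters TTCNNNGAA. They come from the GRCm38 reference, plus strand, and the matches are in capitals. Gcnt2 (chr13:40916658-40916957) and Rdh10 (chr1:16182623-16182922) hold both. Drd1 (chr13:53929444-53929743), Arid5a (chr1:36325887-36326186), Arhgap28 (chr17:67988980-67989279) and Cd24a (chr10:43657630-43657929) hold AP-1 matches only. Another peak linked to Arhgap28 holds a STAT match (chr17:67976454-67976482, with 10 bases on either side). The windows of peaks linked to Il10ra and Aqp8, genes that also rose with leptin, hold neither match and are not printed. Windows at other genes that rose with leptin, Gpr151, Slc10a6 and Timp1 among them, are not printed either. Whether those at Gpr151, Slc10a6 and Timp1 hold a match is not given here.
Gcnt2: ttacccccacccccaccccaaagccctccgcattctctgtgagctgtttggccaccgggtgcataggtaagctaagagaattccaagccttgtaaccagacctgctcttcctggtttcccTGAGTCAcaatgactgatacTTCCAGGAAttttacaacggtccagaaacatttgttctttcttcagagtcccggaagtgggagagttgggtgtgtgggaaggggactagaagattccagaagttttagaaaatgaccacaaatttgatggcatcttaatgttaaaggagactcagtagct
Rdh10: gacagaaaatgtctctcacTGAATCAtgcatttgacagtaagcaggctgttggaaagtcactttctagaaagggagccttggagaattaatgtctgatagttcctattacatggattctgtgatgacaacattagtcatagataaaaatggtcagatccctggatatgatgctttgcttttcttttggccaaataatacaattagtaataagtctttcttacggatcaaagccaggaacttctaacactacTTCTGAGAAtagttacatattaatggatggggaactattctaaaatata
Drd1: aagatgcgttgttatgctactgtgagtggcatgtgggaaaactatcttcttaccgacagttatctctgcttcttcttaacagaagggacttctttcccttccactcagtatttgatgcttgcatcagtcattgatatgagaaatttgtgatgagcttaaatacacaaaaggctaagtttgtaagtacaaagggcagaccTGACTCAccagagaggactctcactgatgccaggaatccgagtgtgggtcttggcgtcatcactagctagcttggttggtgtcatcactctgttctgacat
Arid5a: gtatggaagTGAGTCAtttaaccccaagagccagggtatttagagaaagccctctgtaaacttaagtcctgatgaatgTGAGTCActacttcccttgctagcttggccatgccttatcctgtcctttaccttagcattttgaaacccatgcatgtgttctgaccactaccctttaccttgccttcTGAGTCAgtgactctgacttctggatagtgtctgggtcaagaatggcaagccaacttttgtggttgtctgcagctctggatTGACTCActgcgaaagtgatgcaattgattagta
Arhgap28: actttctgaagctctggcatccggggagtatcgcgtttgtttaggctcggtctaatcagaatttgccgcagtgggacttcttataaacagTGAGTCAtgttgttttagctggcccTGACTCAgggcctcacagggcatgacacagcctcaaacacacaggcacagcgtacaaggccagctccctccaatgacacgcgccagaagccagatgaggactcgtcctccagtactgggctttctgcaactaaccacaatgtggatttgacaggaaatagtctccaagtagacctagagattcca
Cd24a: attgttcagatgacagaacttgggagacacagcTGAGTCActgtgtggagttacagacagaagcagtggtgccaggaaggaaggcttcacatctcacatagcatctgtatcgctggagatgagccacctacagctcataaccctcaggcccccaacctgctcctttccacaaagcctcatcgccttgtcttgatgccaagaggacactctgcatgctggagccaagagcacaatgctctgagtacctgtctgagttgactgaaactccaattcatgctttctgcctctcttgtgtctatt

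The Gcnt2 match TTCCAGGAA also meets the stricter STAT letters TTCCNGGAA, and the Arid5a window holds 4 separate AP-1 matches. Further STAT matches, each with 10 bases on either side, lie in peaks linked to Gadd45g, Ptpn1, Pik3r1 and Osmr, genes of the leptin and STAT3 lists, and to Arid5b, which rose with leptin. The sites near Gadd45g are at chr13:51835013-51835041 and chr13:51858683-51858711, and the Arid5b site is at chr10:68066454-68066482. The Ptpn1 site is at chr2:167828455-167828483, those near Pik3r1 at chr13:101540883-101540911 and chr13:101803632-101803660, and the Osmr site at chr15:6971883-6971911.
Gadd45g upstream site: ggtgacaaaaTTCCTGGAAaaaagaaaat
Gadd45g downstream site: agctgagcagTTCAGGGAActgctgtctg
Arid5b site: ctaaaaattaTTCAGGGAAatgatgatga
Ptpn1 site: gtctgtccttTTCCCAGAAgtgggaggcc
Pik3r1 distal site: gagtgtgtgcTTCCAAGAAagcaggtttg
Pik3r1 proximal site: tgattcatttTTCTCAGAAtaacttattt
Osmr site: tatttctcatTTCTCAGAAatatgatgga

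Across the 2188 peaks the median log2 CPM was 0.49 and 0.82 in the fed libraries, 2.01 and 2.16 in the fasted libraries, and 3.03 and 2.99 in the leptin libraries. All 74904 peaks with a mean of at least 1 had medians of 2.54 and 2.41 fed, 2.61 and 2.61 fasted, and 2.69 and 2.64 leptin. The selected peaks were therefore lower than the typical peak in fed animals and above it in leptin-treated animals. Their median difference was 1.32 from fed to fasted, 0.82 from fasted to leptin, and 2.30 from fed to leptin, on the log2 scale, and the fasting step was the larger in 1681 of them. The median gap between the 2 libraries of a state was 0.51 fed, 0.33 fasted and 0.23 leptin. These values chose the peaks and are a description. The nearest peaks inside either limit had a difference of 0.60 and the nearest outside 0.595.

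**Figure D1:**
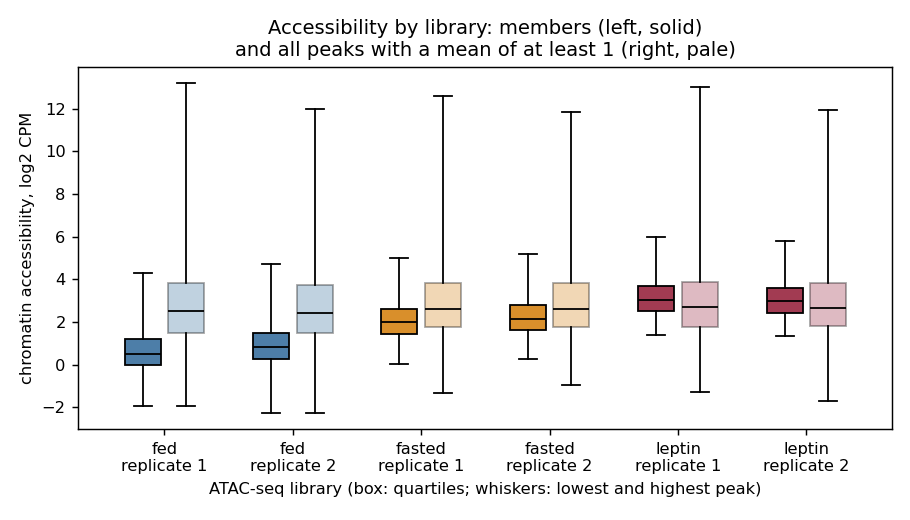
Level of the 2188 peaks (log2 CPM, vertical axis) in each of the 6 ATAC-seq libraries, with solid boxes for the selected peaks (named members) and pale boxes for all 74904 peaks with a mean of at least 1. Boxes span the quartiles and whiskers the lowest and highest peak. The selected peaks have medians of 0.49 and 0.82 in the fed libraries and 3.03 and 2.99 in the leptin libraries, while the medians of all peaks stay between 2.41 and 2.69.

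The peaks rested on few reads in fed animals. The median raw count per peak was 10 and 23 in the fed libraries, 61 and 70 in the fasted libraries, and 116 and 138 in the leptin libraries. No peak had 0 counts in any library, and the lowest count was 14 in a fasted and 36 in a leptin library. Together they held 0.379% and 0.491% of all counts fed, 1.12% and 1.26% fasted, and 2.28% and 2.22% with leptin. In an edgeR count model of the same libraries, 1475 of them (67.4%) were called higher fasted than fed (FDR under 0.05, log2 fold change over 0.5; 19.0% of all peaks tested), 245 (11.2%) higher with leptin than fasted (1.44% of all), and all 2188 higher with leptin than fed (23.7% of all). Those calls used the libraries that chose the peaks, and the fasted libraries enter both steps.

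The peak with the largest difference between leptin and fed lay in an intron 24567 bases from the start site of Pzp, at chr6:128550944-128551630. Its log2 CPM was -1.91 and -1.02 fed, 2.10 and 2.26 fasted, and 3.51 and 3.63 with leptin, from raw counts of 1, 5, 65, 75, 163 and 217. The other 7 peaks with the largest differences also had single-digit counts in the first fed library, so the size of their change rests on a near-empty fed state. At the other end, the selected peak with the highest mean was an intronic one 25243 bases from the start site of Slc24a1, a retinal sodium/calcium-potassium exchanger. It measured 4.12 and 4.71 fed, 4.99 and 5.20 fasted, and 6.00 and 5.76 with leptin. It was open in every state, and its libraries were higher at each step.

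Library totals ran from 8263234 to 17190963 counts in the ATAC-seq states, from 8685497 to 11177208 in the sorted nuclei, and from 25581041 to 54511107 in the RNA. The first fed ATAC-seq library was the shallowest. The share of counts within 1 kb of a start site was 51.2% and 54.5% fed, 46.5% and 47.9% fasted, and 45.7% and 46.6% with leptin. It was lower in the states in which the selected peaks were higher, and its part in the result was not tested. Summed promoter accessibility of 7 AgRP neuron markers (Agrp, Npy, Corin, Ghsr, Otp, Acvr1c, Lepr) was 401 and 363 CPM fed, 419 and 365 fasted, and 383 and 339 with leptin. It overlapped between states. For 6 astrocyte markers the sum was 12.6 and 8.87 CPM fed, 23 and 23 fasted, and 30.0 and 31.5 with leptin. Aqp4 was at 3.63 and 3.49 CPM fed, 14.5 and 16.4 fasted, and 16.7 and 21.0 with leptin, while Gfap and Aldh1l1 had no promoter peak. Gja1 overlapped between states, at 3.63 and 2.23 fed, 2.73 and 2.86 fasted, and 2.01 and 3.43 with leptin. Slc1a3 and Agt overlapped between fed and fasted and were higher with leptin. For 5 endothelial markers it was 5.32 and 8.59 fed, 16.3 and 17.2 fasted, and 20.5 and 18 with leptin. Pecam1 was at 2.18 and 5.38 fed, 11.8 and 12.3 fasted, and 17.7 and 15.1 with leptin, with no promoter peak at Flt1, Tek or Cdh5. Cldn5 did not follow that course, at 3.15 and 3.21 fed, 4.51 and 4.9 fasted, and 2.77 and 2.91 with leptin. These sums moved in the same direction as the selected peaks, none of those promoter peaks is among the 2188, and their part in the result was not tested. In the RNA no marker of any of the 10 lists checked was called in either step without the replicate block. The summed RNA of the AgRP markers was 1650 to 2550 CPM fed, 3450 to 6720 fasted and 2560 to 6650 with leptin, so fed and fasted did not overlap. With the block Npy, Otp, Acvr1c and Lepr were called higher fasted than fed, and Otp and Acvr1c lower with leptin than fasted. Their part in the results was not tested. Among the RNA libraries, those numbered 4 stood apart in all 3 states. Srgap3, an axon-guidance regulator, was at 456, 392 and 1140 CPM fed, at 328, 360, 318 and 1310 fasted, and at 348, 360, 358 and 1150 with leptin, the last value of each group being library 4.

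Peaks that passed the fasting step numbered 20096 and those that passed the leptin step 6288, against 2188 that passed both. Another 7884 opened with fasting and stayed within 0.2 with leptin (fasted-opened only), and 825 opened with leptin and stayed within 0.2 with fasting (leptin-opened only). The mirror rule, closed by fasting and further by leptin, kept 979 peaks. Peaks that changed stepwise were thus more often opened than closed. The paper also counted more opened than closed regions for fasting and for leptin alone, at its own thresholds.

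**Figure D2:**
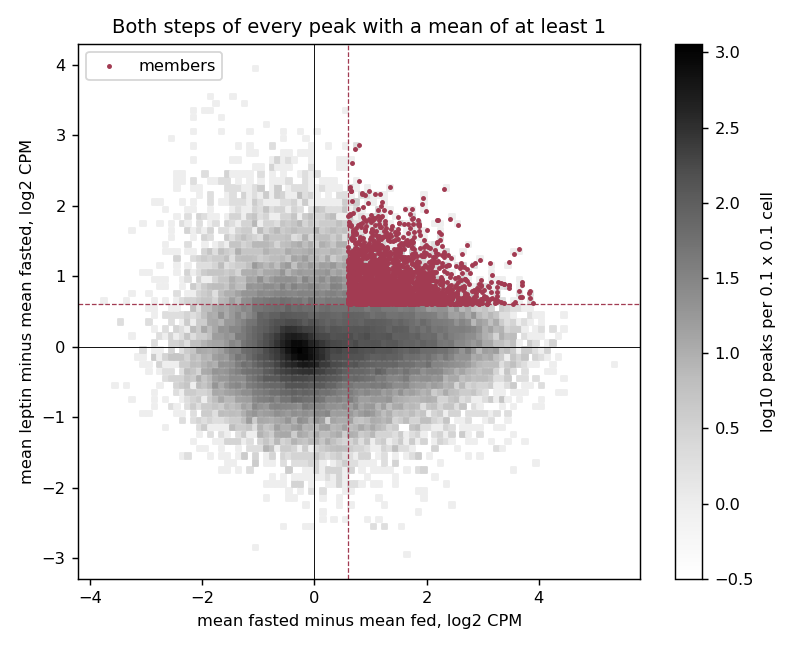
Difference of each peak from fed to fasted (horizontal) and from fasted to leptin (vertical), both in log2 CPM, for all 74904 peaks with a mean of at least 1 (grey, by log10 number of peaks) and for the 2188 selected peaks (red, named members). Dashed lines stand at 0.6. The selected peaks fill the upper right corner beyond 0.6 on both axes, with medians of 1.32 and 0.82.

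By position the selected peaks were distal. The centre of 53.6% lay in an intron, 39.2% between genes, 2.93% in an exon and 4.30% within 1 kb of an annotated start site. Of all peaks, 45.2% were intronic, 29.6% intergenic, 3.70% exonic and 21.6% within 1 kb of a start site. The median distance to the nearest protein-coding start site was 44681 bases against 27652 for all peaks, the median length 482 against 571 bases, and the median GC content of the central 300 bases 45.0% against 48.7%. Of the 2188, 123 lay within 10 kb of another, and the median distance to the nearest other was 260849 bases. Fasted-opened only peaks had much the same layout, with 4.21% within 1 kb of a start site, a median distance of 38128 bases and 46.0% GC.

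CTCF, the insulator protein, marks constitutive chromatin boundaries. A CTCF CUT&RUN peak of AgRP nuclei (1 sample) overlapped 56 of the 2188 (2.56%), 8.31% of the fasted-opened only, 11.0% of the leptin-opened only and 25.5% of all peaks. IRF3, an interferon regulatory factor, was mapped by CUT&RUN in 1 sample from a model carrying a constitutively active form, and its peaks overlapped 26 (1.19%), against 2.5%, 3.52% and 12.4%. Both overlaps were lowest in the selected set. Neither list has a replicate, and the selected peaks differ from all peaks in height, length and distance to genes.

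The sequence under the peaks was read for fixed letter strings in the central 300 bases, on both strands. The AP-1 letters occurred in 1561 of 2188 windows (71.3%), against 73.3% of fasted-opened only, 39.5% of leptin-opened only and 30.3% of all peaks. The STAT letters occurred in 506 (23.1%), against 9.82%, 35.5% and 12.0%. The stricter TTCCNGGAA, a subset of those matches, occurred in 123 (5.62%), against 1.14%, 14.9% and 2.40%. The peaks that both stimuli opened thus carried AP-1 letters at a share near that of peaks opened by fasting only, and STAT letters at a share between the peaks opened by fasting only and those opened by leptin only.

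**Figure D3:**
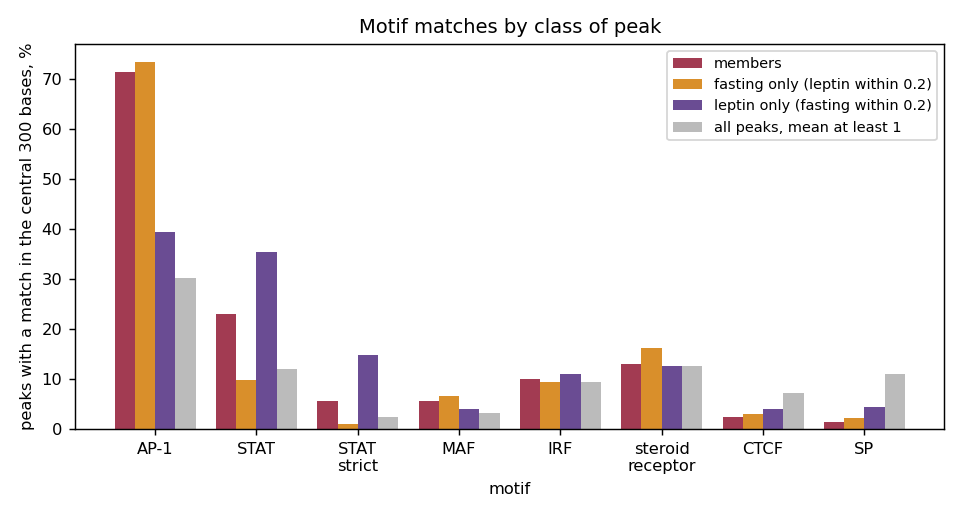
Share of peaks (percent, vertical bars from 0) whose central 300 bases hold each of 8 letter strings (horizontal axis), for the selected peaks (named members), those opened by fasting only, those opened by leptin only and all peaks with a mean of at least 1. AP-1 letters are in 71.3% of the selected peaks against 30.3% of all, and STAT letters in 23.1% against 12.0%.

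AP-1 letters without STAT letters were in 1204 windows (55.0%), STAT letters without AP-1 in 149 (6.81%), both in 357 (16.3%) and neither in 478 (21.8%). More than 1 AP-1 match was common, with 2 in 393 windows and 3 or more in 59. The median leptin step was 0.795 log2 units in AP-1-only windows, 0.955 in STAT-only windows, 0.885 where both were present and 0.817 where neither was. Ranked by leptin step, the 730 peaks with steps of at least 0.95 held STAT letters in 31.6%, the 729 between 0.725 and 0.95 in 20.7%, and the 729 below 0.725 in 17%. For AP-1 letters these shares were 68.5%, 72.3% and 73.3%. Ranked by fasting step, AP-1 letters were in 76.3% of the peaks of the largest steps and in 66.4% of those of the smallest, while STAT letters were in 21.0% and 24.0%. A match is a description of the letters, and the steps were used to choose the peaks.

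Other strings differed less or in the other direction. The MAF letters TGCTGANTC, which overlap AP-1, were in 5.71% against 3.25% of all peaks, and the interferon regulatory factor letters GAAANNGAA in 10.0% against 9.35%. Fasted-opened only peaks held the MAF letters in 6.74% and leptin-opened only peaks in 4.12%. The steroid receptor letters ACANNNTGT were in 13.1% against 12.6%, and in 16.3% of fasted-opened only peaks. The SP letters GGGCGGG, frequent in CpG-rich promoters, were in 1.55% against 11.0%, and the CTCF letters CNAGGNGGC in 2.38% against 7.22%. SP and CTCF letters were thus rarer in the selected peaks than in all peaks. The same held for fasted-opened only peaks (2.32% and 2.96%) and leptin-opened only peaks (4.36% and 4.12%).

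Sorted nuclei gave a measurement the rule did not use. Of the 2188 peaks, 590 (27.0%) overlapped a peak of the sorted-nuclei table, against 68.1% of all peaks and 41.5% of fasted-opened only. Of the 579 that could be tested, 350 (60.4%) were more open in AgRP-positive than in AgRP-negative nuclei and 13 (2.25%) less open, by edgeR's quasi-likelihood test at FDR under 0.05 and log2 fold change over 0.5. Over all 66560 peaks tested there, 24.1% were more and 15.3% less open, and over the peaks of the states table with a mean of at least 1 it was 30.0% and 8.44%. The median CPM of the matched peaks was 4.44 and 3.33 in AgRP-positive and 1.35 and 1.42 in AgRP-negative libraries, and their median log2 fold change was 1.47. Fasted-opened only peaks (61.0% more open) and leptin-opened only peaks (57.0%) gave nearly the same share. The share lay above that of all peaks and near that of the other opened peaks. A peak had to be in the sorted-nuclei table with a mean over 1 CPM to be tested. Among low peaks that filter favours those high in 1 population, and all peaks had medians of 5.05 and 5.21 CPM in the AgRP-negative libraries. The comparison with all peaks is therefore not like for like, and no conclusion is drawn from it. The count fell to 210 without the first AgRP-positive library, and unmatched peaks had no value there.

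**Figure D4:**
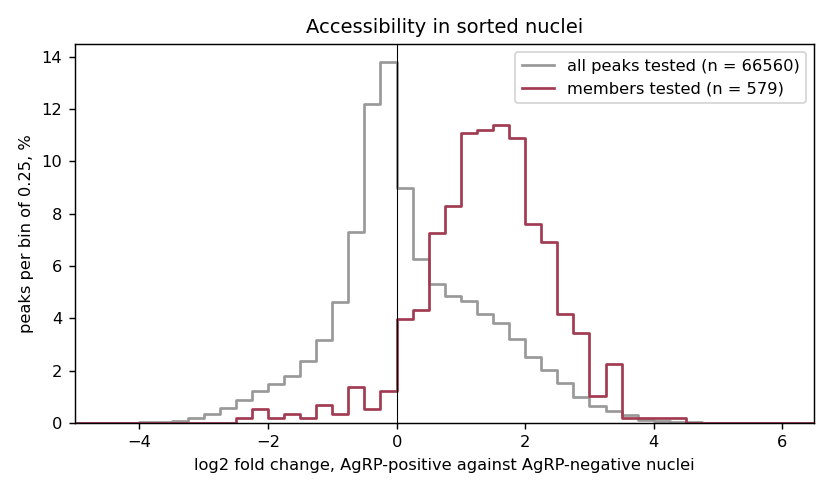
Distribution of log2 fold change, AgRP-positive against AgRP-negative nuclei (horizontal), as percent of peaks per bin (vertical), for the 579 selected peaks tested (named members) and all 66560 peaks tested. The selected peaks have a median of 1.47, and 350 of 579 (60.4%) were called more open in AgRP-positive nuclei, against 24.1% of all peaks tested. The share was 61.0% for fasted-opened only and 57.0% for leptin-opened only peaks. The comparison with all peaks is not like for like, because low peaks passed the filter more easily when high in 1 population.

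To ask whether the genes near these peaks changed in RNA, each peak was linked to the nearest protein-coding start site within 200 kb. That linked 1853 peaks to 1568 genes, of which 1203 were tested in the AgRP RNA. From fed to fasted 42 linked genes (3.49%) rose and 17 (1.41%) fell, against 2.81% and 1.08% of all 13401 genes tested. With the replicate number as a block the counts were 68 and 31 (4.41% and 2.58% of all). From fasted to leptin 46 (3.82%) rose and 8 (0.665%) fell, against 1.19% and 0.604%, and with the block 75 and 15 (1.78% and 1.07% of all). From fed to leptin 90 (7.48%) rose and 17 (1.41%) fell, against 3.70% and 1.70%, and with the block 32 fell (3.22% of all). Scaled by library size alone, 20 rose and 14 fell from fed to fasted, so the share of calls that were rises was 58.8% in place of 71.2%. That scaling also gave 48 rises and 9 falls from fed to leptin and 2 falls from fasted to leptin. The 42 rises with fasting fell to 22 without fed replicate 1, 23 without fed replicate 4 and 23 without fasted replicate 3. A rise with leptin was called in 1.77% of genes linked to fasted-opened only peaks, 4.90% of those linked to leptin-opened only peaks and 1.27% of those linked to any peak, so the figure of 3.82% lay near the leptin-opened set. Most linked genes did not pass, and the median log2 fold change of all 1203 was 0.00046 with fasting and 0.03 with leptin. Both contrasts use the fasted libraries. Because RNA was pooled from many cells, fewer cells of a type and less RNA per cell cannot be told apart.

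Linked genes were also counted by distance. A selected peak lay within 1 kb of its linked gene's start site in 38 cases, and 18 of those genes were tested. From fed to leptin 9 of them rose (50.0%, against 3.70% of all genes tested), among them Gcnt2, Gpr151, Mt1, Mt2, Slc10a6, Sphk1 and Timp1. With the nearest peak at 1 to 50 kb 7.11% of 802 genes rose, and at 50 to 200 kb 6.27% of 383. From fasted to leptin the shares were 27.8%, 3.24% and 3.92% in that order of distance, against 1.19% of all genes tested. The nearest group rests on 18 genes.

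The 4 linked genes that rose most with leptin against fasted were Gpr151, Slc10a6, Timp1 and Drd1, all on the list of acute-phase and STAT3 target genes. That list was drawn up with results of these data known. Gpr151, an orphan receptor of neurons, was at 0.971, 0.753 and 0.710 CPM fed, 1.54, 1.06, 0.893 and 0.658 fasted, and 18.7, 15.5, 20.1 and 11.8 with leptin. All leptin libraries lay far above all others, which overlapped among themselves (leptin against fasted log2 fold change 3.99, SE 0.26, FDR 2.82e-05). Its promoter peak, 152 bases from the start site, measured 1.61 and 1.42 log2 CPM fed, 2.61 and 2.58 fasted, and 4.51 and 4.12 with leptin. Accessibility was higher in the fasted than in the fed libraries by the rule, while fasted and fed RNA overlapped (fasted against fed 0.35, FDR 0.597).

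Slc10a6, a steroid sulfate transporter, and Timp1, an inhibitor of matrix metalloproteinases, followed the same course. Slc10a6 was at 0.0809, 0.376 and 0.209 CPM fed, 0.392, 0.259, 0.392 and 0.622 fasted, and 6.36, 3.83, 6.31 and 3.78 with leptin (log2 fold change 3.65, SE 0.36, FDR 0.000461). Timp1 was at 0.836, 0.401 and 1.17 CPM fed, 2.51, 1.29, 0.959 and 1.13 fasted, and 8.43, 9.31, 13.7 and 8.29 with leptin (2.76, SE 0.35, FDR 0.0017). The leptin libraries of both genes were clear of the rest. Peaks at their start sites measured, on the log2 CPM scale, 1.77 and 0.17 fed, 2.58 and 1.78 fasted, and 4.11 and 3.95 with leptin at Slc10a6, and 1.72 and 2.44, 2.45 and 3.22, and 3.78 and 3.65 at Timp1. Timp1 lies within Syn1 on the opposite strand, and the RNA libraries were tagmented from double-stranded cDNA, which keeps no strand. The authors counted on an annotation altered to reduce overlaps, whose treatment of these genes is not given in the sources used here, so the level is uncertain. The same holds for Lancl3, Srgap3, Jak1, Stat5a, Fam92b, Acvr1c, Pcsk2, Pde10a, Ccnl1, Fgl2, Gcnt2, Sphk1, Mt2, Bcl3, Mast4, Kcnab1, Sox4, Adgrg2 and Smoc2, which also overlap genes annotated on the other strand.

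Rdh10, which oxidises retinol to retinal on the way to retinoic acid, was at 11.3, 13.3 and 12.7 CPM fed, 15.2, 13.0, 12.9 and 13.5 fasted, and 93.5, 72.1, 86.1 and 60.3 with leptin (log2 fold change 2.51, SE 0.14, FDR 9.16e-06). Fed and fasted libraries nearly coincided and all leptin libraries were higher. The peak 76999 bases from its start site, whose STAT and AP-1 matches are printed above, measured 0.03 and 2.20 log2 CPM fed, 3.70 and 3.66 fasted, and 5.37 and 5.44 with leptin. It was called more open in AgRP-positive nuclei (2.71, FDR 3.53e-09), as were 60.4% of the selected peaks tested.

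Among immune-type receptors and regulators, Il10ra, a subunit of the interleukin-10 receptor, was at 1.46, 0.778 and 1.17 CPM fed, 1.06, 0.657, 1.07 and 1.02 fasted, and 4.47, 4.54, 4.22 and 3.82 with leptin (2.17, SE 0.21, FDR 0.00044). Arid5a, an RNA-binding stabiliser of cytokine and Stat3 transcripts, was at 6.61, 5.47 and 5.35, then 4.83, 4.84, 5.38 and 6.44, then 27.0, 18, 23.4 and 21.5 (2.07, SE 0.15, FDR 6.07e-05). In both genes only the leptin group stood out. Il1r1, the interleukin-1 receptor, rose by 1.03 (SE 0.13, FDR 0.0017), Gadd45g, a stress-response gene with 3 linked peaks, by 1.06 (SE 0.18, FDR 0.0119), and Arid5b, with 4 linked peaks, by 0.79 (SE 0.16, FDR 0.0229). Bcl3, a nuclear IkB protein, rose by 1.30 (FDR 0.0267), a call lost in 6 of 11 fits that left out 1 library. Cd24a, a surface glycoprotein, rose by 1.65 (SE 0.21, FDR 0.00202), Aqp8, a water channel, by 1.75 (FDR 0.00897), and Arhgap28, a GTPase-activating protein, by 1.87 (FDR 0.00614).

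Drd1 and Lipg fell with fasting and rose with leptin. Their peaks were higher at both steps by the rule, so the difference in course is not a result about the peaks. Drd1, the D1 dopamine receptor, was at 13.5, 14.2 and 10.6 CPM fed, 6.94, 7.17, 4.82 and 5.6 fasted, and 43.5, 35, 38.0 and 32.7 with leptin. No libraries overlapped between states, and the log2 fold change was -1.06 with fasting (SE 0.16, FDR 0.00419) and 2.60 with leptin (SE 0.16, FDR 2.03e-05). Its peak, 126064 bases from the start site, measured 0.61 and 1.30 log2 CPM fed, 2.03 and 1.72 fasted, and 3.40 and 3.22 with leptin. Lipg, endothelial lipase, was at 3.43, 2.36 and 1.96 CPM fed, 1.12, 0.836, 1.02 and 1.17 fasted, and 5.77, 3.33, 5.22 and 3.37 with leptin (-1.33, FDR 0.0153; 2.10, FDR 0.00113), and Man2a1, a Golgi mannosidase, changed in the same way (-0.65 and 1.26).

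Gcnt2, Fgl2 and Pde1c rose in RNA at both steps. In all 4 linked genes were called so, and these 4 were the only ones among all 13401 (0.0298%), and with the block 8 linked genes of 13 in all were. Gcnt2, which makes branched poly-N-acetyllactosamine on glycans, was at 19, 18.8 and 17.2 CPM fed, 47.2, 38.1, 44.0 and 33.5 fasted, and 142, 111, 126 and 84.5 with leptin (1.15, FDR 0.0036; 1.51, FDR 0.000584). States did not overlap, and the peak 793 bases from the start site went from 1.93 and 1.18 log2 CPM fed to 2.28 and 2.89 fasted and 3.87 and 3.83 with leptin. Fgl2, a fibrinogen-like prothrombinase and immune regulator, was at 17.5, 14.1 and 10.8 CPM fed, 66.7, 44.9, 42.8 and 40.2 fasted, and 133, 108, 161 and 62.4 with leptin (1.78, FDR 0.00818; 1.26, FDR 0.0405). One leptin library fell inside the fasted range, and the leptin call was lost in 8 of 11 fits that left out 1 library. Pde1c, a calmodulin-dependent phosphodiesterase, was at 34.9, 37.7 and 30.3, then 61.2, 50.9, 59.0 and 56.0, then 91.7, 80.6, 108 and 77.9 CPM (0.73, FDR 0.00788; 0.66, FDR 0.0119).

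Sphk1, which makes sphingosine-1-phosphate, rose most of the linked genes from fed to fasted. It was at 0.486, 0.803 and 0.794 CPM fed, 10.9, 9.52, 15.5 and 5.30 fasted, and 18.3, 24.7, 28.1 and 10.6 with leptin. The fed libraries were near 0 and the fasted and leptin libraries overlapped (3.90, SE 0.47, FDR 0.0016 with fasting; 0.99, FDR 0.269 with leptin, and 0.99, FDR 0.000821 with the block). Its promoter peak was low, at 0.35 and 0.57 log2 CPM fed, 1.39 and 1.21 fasted, and 2.01 and 2.01 with leptin. The metallothioneins Mt1 and Mt2, metal-binding proteins that glucocorticoids induce, had promoter peaks that were less open in AgRP-positive than in AgRP-negative nuclei (-0.79, FDR 0.000302, and -1.09, FDR 0.00263). Mt2 was at 5.96, 7.63 and 5.97 CPM fed, 12.1, 17.5, 18.5 and 14.4 fasted, and 16.1, 32.6, 47.0 and 26.8 with leptin (1.26, FDR 0.0399 with fasting; 2.23, FDR 0.00243, leptin against fed). Its fasting call was lost in 7 of 11 fits that left out 1 library.

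**Figure D5:**
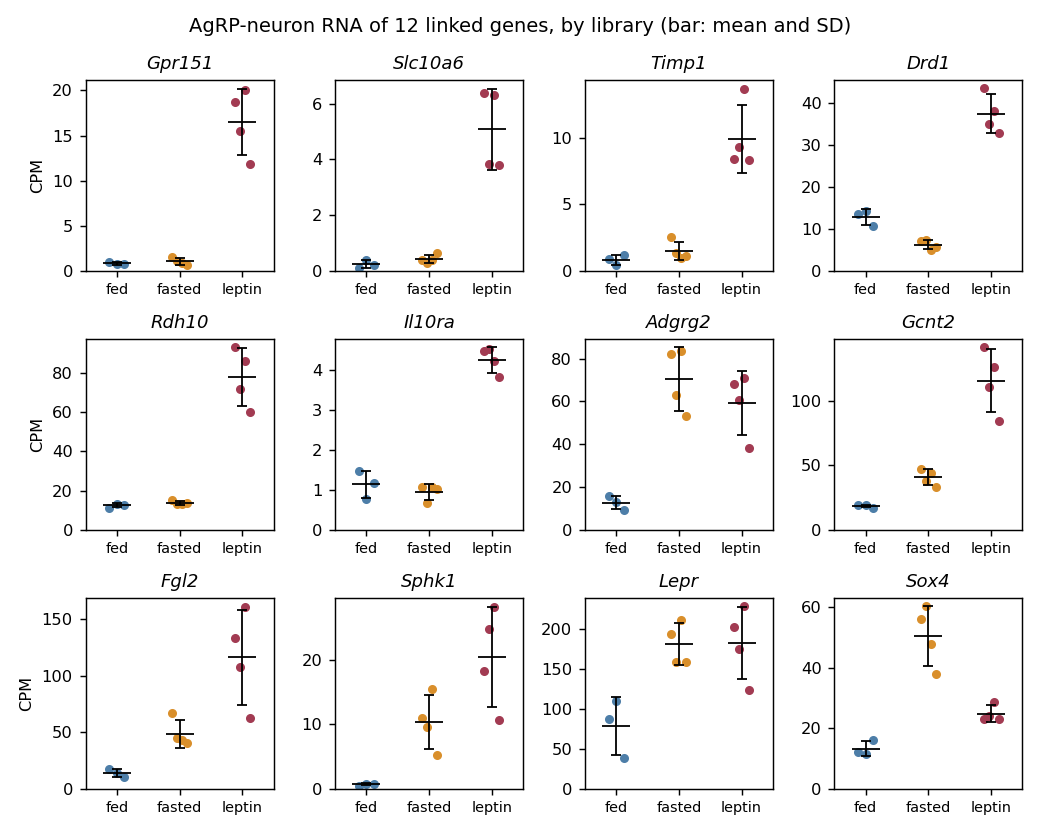
RNA level (CPM, linear axis from 0, 1 panel a gene) of 12 linked genes in 3 fed, 4 fasted and 4 leptin libraries, each point a library, with bars for mean and SD. Gpr151, Slc10a6, Timp1 and Rdh10 rise in the leptin libraries only, Gcnt2 and Fgl2 rise at each step, Adgrg2 rises with fasting, Drd1 falls before it rises, and Sox4 rises with fasting and falls with leptin.

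Other linked genes rose with fasting and were not called higher again with leptin. Adgrg2, an adhesion receptor, was at 15.6, 13.0 and 9.40 CPM fed, 82.2, 63.1, 83.8 and 53.3 fasted, and 68.3, 60.6, 70.8 and 38.0 with leptin (2.47, SE 0.26, FDR 0.00107 with fasting; -0.25, FDR 1.00 with leptin). Pappa2, a protease that frees insulin-like growth factors, behaved likewise at 4.56, 4.26 and 3.55, then 32.2, 19.9, 23.5 and 15.3, then 16.7, 17.5, 28.4 and 11.6 CPM (2.46, SE 0.33, FDR 0.00214; -0.29, FDR 1.00). Lancl3 (1.24, FDR 0.00107), Ecm1, an extracellular matrix protein (1.36, FDR 0.00297), Spdef, an ETS-family transcription factor (1.34, FDR 0.0223, lost in 5 of 11 fits that left out 1 library) and Ism1, a secreted isthmin with 4 linked peaks (0.99, FDR 0.00765), also rose with fasting.

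Sox4, Lurap1l, Kcnab1, Mast4 and Plk2 rose with fasting and fell with leptin. Their linked peaks were higher at both steps by the rule, so the difference in course is not a result about the peaks. Sox4, a transcription factor of neural progenitors, was at 12.1, 11.6 and 16.1 CPM fed, 56.2, 60.4, 47.8 and 37.8 fasted, and 23.2, 24.2, 28.8 and 23.2 with leptin. The 3 states did not overlap (1.93, SE 0.18, FDR 0.000585; -1.02, SE 0.15, FDR 0.00581), while the nearer of its peaks, 103721 bases away, measured 0.35 and 0.08 log2 CPM fed, 1.55 and 0.53 fasted, and 1.76 and 2.24 with leptin. Kcnab1, a potassium channel beta subunit with 3 linked peaks, was at 47.7, 53.9 and 54.1 CPM, then 118, 100.0, 115 and 103, then 77.7, 75.4, 80.2 and 68.5 (1.07, FDR 0.000513; -0.53, FDR 0.00664). Lurap1l changed by 0.87 (FDR 0.00423) and -0.81 (FDR 0.00533). Mast4, a kinase with 3 linked peaks, changed by 1.21 (FDR 0.00248) and -0.69 (FDR 0.0394), the latter lost in 8 of 11 fits that left out 1 library. Kcnj5, a subunit of G-protein-gated potassium channels, fell with leptin by 0.80 on the log2 scale (FDR 0.0181), and Vwc2l by 0.63 (FDR 0.0336), lost in 10 of those 11 fits. From fed to fasted Klhl1 fell by 0.96 (FDR 0.00169), Npffr2, a neuropeptide FF receptor, by 0.98 (FDR 0.0347, lost in 6 of 11 such fits) and Katnal2 by 0.76 (FDR 0.0132).

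Of 34 genes of leptin and JAK-STAT signalling, 8 were the nearest gene of a selected peak and 19 had a start site within 200 kb of one. Of all 21924 protein-coding genes, 7.15% were nearest to one and 29.1% lay within 200 kb. In the RNA 7 of the 30 tested rose and 1 fell with leptin against fasted, beside 1.19% and 0.604% of all genes tested. Socs3, the feedback inhibitor of the leptin receptor, was at 9.06, 13.0 and 5.89 CPM fed, 2.72, 2.55, 2.40 and 1.79 fasted, and 35.7, 30.7, 35.5 and 23.9 with leptin (-1.98, FDR 0.0018; 3.73, SE 0.25, FDR 3.66e-05). The peak within 200 kb of it, in an intron near the start site of Pgs1, measured 0.93 and 1.50 log2 CPM fed, 3.24 and 3.12 fasted, and 4.54 and 4.15 with leptin. That peak was higher at both steps by the rule, while Socs3 RNA fell and then rose. Socs1 took the same course (-0.72, FDR 0.0475; 1.31, FDR 0.00204), Socs2 rose with leptin (1.46, FDR 0.000582), and Ptpn1, a phosphatase of JAK2, rose by 0.52 (SE 0.08, FDR 0.0068).

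Lepr, the leptin receptor, had 2 linked peaks, 1 of them between genes 21137 bases from its start site, at 0.20 and 0.76 log2 CPM fed, 2.37 and 1.85 fasted, and 2.97 and 2.75 with leptin. Its RNA was at 87.3, 110 and 39.1 CPM fed, 194, 158, 211 and 159 fasted, and 202, 175, 229 and 123 with leptin. Fasted libraries lay above all fed libraries and overlapped those given leptin. The difference of fasted from fed was 1.19 (FDR 0.0534; with the block 1.32, FDR 8.49e-05), and leptin against fed passed at 1.21 (FDR 0.0389), a call lost in 8 of 11 fits that left out 1 library. Jak1, Stat5a, Socs6, Ptpn2, Pik3r1 and Osmr had linked peaks and no call in any contrast under the thresholds. With the block Osmr differed by 0.98 with leptin (FDR 0.0119).

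Of 29 acute-phase and STAT3 target genes, 8 were nearest to a selected peak (Bcl3, Il1r1, Slc10a6, Gpr151, Cebpb, Timp1, Gadd45g, Drd1) and 13 were within 200 kb, beside 7.15% and 29.1% of all protein-coding genes. In the RNA 16 of 23 tested rose with leptin against fasted and 1 fell, beside 1.19% and 0.604% of all genes tested. Fga, the alpha chain of fibrinogen, went from 0.0539, 0.201 and 0.0418 CPM fed and 0.815, 0.538, 0.392 and 0.475 fasted to 28.1, 20.7, 62.2 and 11.9 with leptin (5.80, SE 0.55, FDR 0.000385). A selected peak lay within 200 kb of it. It measured 2.80 and 3.95 log2 CPM fed, 4.55 and 4.47 fasted, and 5.50 and 5.48 with leptin, with 2 AP-1 matches, and its nearest start site was that of Lrat. The list's direction is not independent evidence.

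Of 41 AP-1, MAF, ATF and activity-dependent genes, 3 (Dusp6, Klf4 and Pde10a) were nearest to a selected peak and 14 were within 200 kb, beside 7.15% and 29.1% of all protein-coding genes. Of 37 tested, 9 rose with fasting (Junb, Maff, Myc, Btg2, Scg2, Fos, Nr4a1, Npas4 and Vgf), beside 2.81% of all genes tested. With leptin against fasted 3 rose (Jun, Nptx2, Atf3) and 5 fell (Npas4, Nr4a1, Fosb, Nr4a3, Btg2), beside 1.19% and 0.604% of all. None of the 3 nearest genes was called in any contrast. Fosb, a component of AP-1, was at 9.17, 8 and 16.6 CPM fed, 17.5, 16.8, 14.5 and 23.5 fasted, and 4.69, 5.92, 6.94 and 6.84 with leptin (-1.56 with leptin, SE 0.24, FDR 0.00622). It was lowest in the state in which the selected peaks were highest. Nptx2, a synaptic pentraxin, was at 76.0, 103 and 71.6, then 139, 170, 166 and 109, then 277, 379, 585 and 227 CPM (1.33 with leptin, FDR 0.03; 0.80 with fasting, FDR 0.163, and with the block 0.74, FDR 0.00242).

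The remaining lists held 10 linked genes. Of 16 glucocorticoid receptor and target genes, 4 were nearest to a selected peak (Klf9, Mt1, Mt2, Cavin2), beside 7.15% of all protein-coding genes. In the RNA 6 rose with fasting, beside 2.81% of all genes tested. With leptin against fasted 1 rose and 1 fell, beside 1.19% and 0.604% of all. Of 25 interferon regulatory factor and pathway genes, Irf4 alone was nearest to one, beside 7.15% of all protein-coding genes. Of the 15 tested, Irf9 alone was called lower fasted and higher with leptin, beside 1.08% and 1.19% of all genes tested. Of 24 AgRP neuron identity and neuropeptide genes, 5 were nearest to one (Npy, Otp, Acvr1c, Sst, Pcsk2), beside 7.15% of all protein-coding genes. None of the 5 was called in either step, while with the block 4 rose with fasting (Npy, Otp, Acvr1c and Sst). In that fit Otp, a homeobox factor, differed by 0.55 with fasting (FDR 0.000346) and -0.54 with leptin (FDR 0.00032). Acvr1c, an activin-type receptor, differed by 0.63 (FDR 0.00386) and -0.50 (FDR 0.0159), and Sst, somatostatin, by 0.58 with fasting (FDR 0.00305). Over the whole list 1 gene rose with fasting, and 7 with the block, beside 2.81% and 4.41% of all genes tested. Npy, the neuropeptide Y gene, was at 369, 804 and 661 CPM fed, 870, 1920, 3000 and 2210 fasted, and 540, 1880, 3150 and 1780 with leptin, a difference of 1.71 with fasting (FDR 0.113; with the block 1.57, FDR 0.000116). Its libraries numbered 1 were the lowest in every state.

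The share of genes called was also counted by the number of linked peaks. From fed to leptin 6.39% of 1017 genes with 1 peak rose, 12.5% of 152 with 2, and 6 of 34 (17.6%) with 3 or more (Ccnl1, Gadd45g, Ism1, Kcnab1 and Nup93 among them). Of all genes tested 3.70% rose. From fasted to leptin the shares that rose were 3.54%, 5.26% and 5.88% in that order, beside 1.19% of all. Those that fell were 0.492%, 0.658% and 5.88%, beside 0.604% of all, so with 3 or more peaks as many fell (Kcnab1, Mast4) as rose (Arid5b, Gadd45g). From fed to fasted 3.24%, 3.29% and 11.8% rose, beside 2.81% of all. The last group rests on 34 genes. Nckap5 and Smoc2 had the most, 5 each, and neither was called in any contrast. Smoc2, a matricellular calcium-binding protein, was at 1.21, 0.803 and 1.21 CPM fed, 1.33, 0.757, 1.24 and 0.585 fasted, and 2.53, 1.93, 2.15 and 1.45 with leptin (1.03, FDR 0.10 with leptin against fasted; with the block 1.04, FDR 0.0112). Every leptin library lay above every fasted one. Of its 5 peaks only 2 had a value in the sorted nuclei. They were at 1.48 and 2.49 CPM in the AgRP-negative and 9.42 and 9.25 in the AgRP-positive libraries, and at 0.493 and 0.711 against 9.24 and 4.33. Both were called more open in AgRP-positive nuclei, as were 60.4% of the selected peaks tested. The filter on the mean described above applies to them, and no conclusion is drawn.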

How the data were processed

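Peaks and linked genes were chosen with earlier results of these data known, and so were the gene lists, motifs and tests. The authors aligned ATAC-seq reads to mm10 with Bowtie2, removed duplicates, called peaks with MACS2, merged them and counted reads per peak. They deposited raw counts per peak and log2 CPM from edgeR, which chose the peaks here. RNA reads were aligned with HISAT2 and the authors deposited counts per gene from featureCounts, on an annotation altered to reduce overlapping transcripts. The deposited CTCF peak list holds fold enrichment as a ratio, and the deposited IRF3 list holds SEACR signal. The build of both lists is not given in the sources used here and was taken as mm10, and overlap meant at least 1 shared base. Other samples of the series were not analysed here, and some genes are not reported here.

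Counts were tested with edgeR 4.0.16 in R 4.3.3 (TMM scaling, quasi-likelihood test, Benjamini-Hochberg FDR under 0.05 and log2 fold change over 0.5 in either direction), with the alternatives described at the end. Features with a mean CPM of 1 or less over the libraries were left out. RNA libraries with the same number deviated together from their group means (correlations of 0.587 to 0.853 over 10 pairs), so the number was also fitted as a block. Each sample pooled mice, so p-values measure the spread between pooled samples. Peaks were linked to the nearest protein-coding start site of GENCODE vM21 within 200 kb, and the sequence was GRCm38. Named genes were those with the largest called changes in each contrast, those with 3 or more linked peaks, and list genes. Pde1c, Man2a1, Plk2, Srgap3 and the genes counted by distance were named after their values were seen. The pipeline was tested on simulated data.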

Additional observations from a re-analysis of the deposited data

Results flagged for a closer look

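Among 92 groups of 4 RNA libraries, 4 held a library far from the other 3 by Dixon's test on log2(CPM + 1), past its 95% critical value, and chance gives about 1 in 20. Aqp8 was at 0.501 CPM in fasted replicate 3 against 0.755 to 0.805 in the others (gap to range ratio 0.848). Arid5b was at 91.9 CPM in fasted replicate 4 against 57.3 to 59.3 (ratio 0.93). Fam92b was at 1.39 CPM in leptin replicate 4 against 0.649 to 0.741 (ratio 0.854). Il10ra was at 0.657 CPM in fasted replicate 2 against 1.02 to 1.07 (ratio 0.904).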

How the results depend on the processing

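Among called changes of the linked genes named by the set criteria, none reversed direction under an alternative run. Uncalled changes, genes named only after their values were seen and genes that were not linked were not part of that check. Scaled by library size alone, linked genes higher fasted than fed numbered 20, those lower with leptin than fasted 2, and leptin against fed gave 48 higher and 9 lower. Under that scaling the named calls lost were Adamtsl3, Mt2, Nup93 and Spdef with fasting, Bcl3, Fgl2, Kcnab1, Kcnj5, Mast4, Ptpn1 and Vwc2l with leptin against fasted, and 9 of 36 against fed, Lepr among them. With the replicate number as a block, which uses the pairing, counts were 68 higher and 31 lower fasted against fed, 75 and 15 leptin against fasted, and 32 lower leptin against fed. Linking every gene within 200 kb gave 122 and 59, 90 and 16, and 212 and 65 in those contrasts, and within 50 kb 27 higher and 8 lower with fasting and 3 lower with leptin. With libraries numbered 4 left out together, an alternative chosen after seeing the data, 39 were lower with fasting, 71 higher with leptin against fasted and 32 lower with leptin against fed. Leaving out 1 library at a time, calls ranged from 22 to 49 higher and 8 to 34 lower with fasting, 34 to 56 and 3 to 7 with leptin against fasted, and 60 to 110 and 6 to 23 against fed. The counts moved by over 1.5 times without fasted replicate 3 (23 higher, 9 lower with fasting; 3 lower with leptin), fed replicate 1 (22 and 8; 6 lower leptin against fed), fed replicate 4 (23 and 10), fasted replicate 4 (34 lower), fasted replicate 1 and leptin replicates 1, 2 and 4 (4, 4, 5 and 5 lower with leptin), and leptin replicates 1 and 3 (11 and 9 lower against fed). Besides the calls described above, leaving out 1 library lost those of Arid5b and Kcnj5 in 4 of 11 fits, Kcnab1 with leptin in 3, and Ptpn1, Lipg with fasting and Katnal2 in 2 each. More open peaks in AgRP-positive nuclei ranged from 210, without AgRP-positive replicate 1, to 350, and less open ones from 10 to 12. The rule kept 435 peaks at steps of 1, and 2008 to 2769 with 1 library left out. The causes were not tested. With 2 ATAC-seq libraries a state and few fed reads, single peaks are imprecise.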
